A study of Mus musculus with 6 samples.

Results

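Genes of 3 tissues that border the brain were followed in prefrontal cortex libraries, as a measure of what each dissected piece held. The set comprised 36 of the 54787 gene symbols in the table, namely 15 genes of the meninges, 12 of the choroid plexus and 9 of the ependyma. Members were taken by gene symbol. The counts of a gene were summed over its isoforms that share exons with the annotated gene. The study compared male C57BL/6 mice given 50 mg/kg body weight polystyrene nanoparticles (PS NPs) by oral gavage once per day (TREAT_HIGH, 3 samples) with male C57BL/6 mice given water, listed as 0 mg/kg PS NPs (CON, 3 samples). Gavage began at 5 weeks of age and lasted 6 months, and the labelled age was 30 weeks. No Cre, transgene or other allele was named for either group. Nothing in the labels says whether animals were pooled, so p-values measure the spread between these samples, which may be technical in part.

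The meninges are the membranes that wrap the brain. Their fibroblasts lay down collagens and small proteoglycans, make retinoic acid and transport solutes, and related fibroblasts follow larger vessels into the tissue. The choroid plexus is an epithelium inside the ventricles that secretes cerebrospinal fluid, with transthyretin as its hallmark product. Ependymal cells line the ventricles and move the fluid with motile cilia, whose genes are switched on by the transcription factor Foxj1. Neither the choroid plexus nor the ventricular wall is part of the prefrontal cortex.

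Gene counts summed to 48840577, 43030348 and 49937321 in TREAT_HIGH and to 50588361, 48526615 and 54105413 in CON. Levels below are counts scaled to these sums (CPM), and levels are compared between genes in FPKM, which divides by length. Isoforms inside introns, which were left out, held 19.1%, 16.4% and 15.3% of all counts in TREAT_HIGH libraries 1 to 3 and 19.0%, 18.0% and 15.0% in CON libraries 1 to 3. In edgeR's quasi-likelihood test 5 of 20272 genes passed a Benjamini-Hochberg adjusted p under 0.05.

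Of the 36 members, 24 reached the mean of 0.5 FPKM needed for testing. These were 13 of 15 meningeal genes, 10 of 12 choroid plexus genes and 1 of 9 ependymal genes. Slc22a6 lay just inside this limit at 0.564 FPKM and Otx2 just outside at 0.497 FPKM. In edgeR 0 of the 24 passed, against 0.0247% of all genes tested (0.00987% higher and 0.0148% lower in TREAT_HIGH), and 1 of them had an unadjusted p under 0.05, against 2.73% of all genes. DESeq2 called 0 as well, with 1 at an unadjusted p under 0.05, and limma on log2(FPKM + 0.1) called 0 with 0. Of the 3 tissues, the choroid plexus genes differed most between the libraries of a group.

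**Figure D1:**
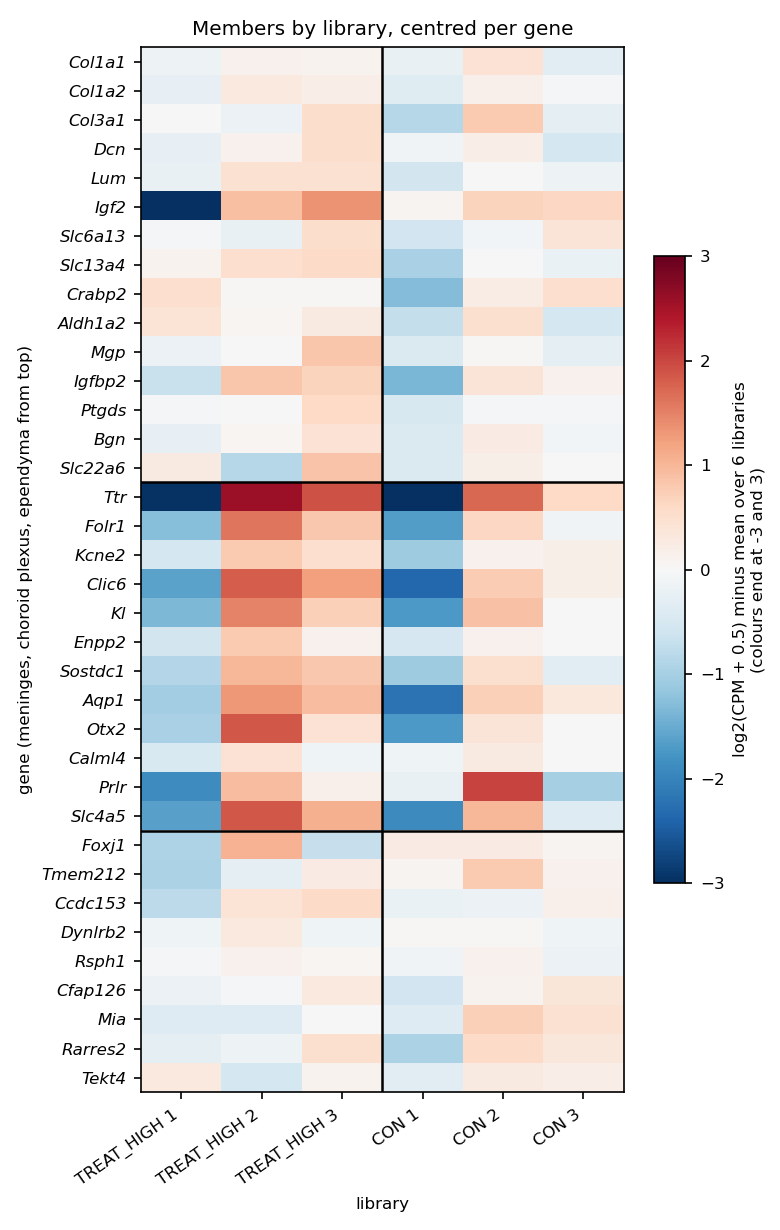
Level of the 36 members in each library, as log2(CPM + 0.5) minus the gene's mean over 6 libraries. Rows are genes in the order meninges, choroid plexus, ependyma, and columns are libraries with TREAT_HIGH on the left; the choroid plexus block is blue in TREAT_HIGH 1 and CON 1 and mostly red in TREAT_HIGH 2, TREAT_HIGH 3 and CON 2.

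The choroid plexus genes were low in TREAT_HIGH 1 and CON 1 and higher in the other libraries of both groups. Ttr, the carrier of thyroid hormone and retinol, had 16.8, 795 and 504 CPM in TREAT_HIGH 1, 2 and 3, against 9.15, 442 and 204 CPM in CON 1, 2 and 3. The first library of each group was low, and the groups overlapped. The highest library, TREAT_HIGH 2, stood 86.9-fold above the lowest, CON 1. Ttr had the highest mean level per length of all members, 185 FPKM. Its group means were 438 ± 393 CPM in TREAT_HIGH and 219 ± 217 CPM in CON (SD, n = 3 each), with a log2 difference of 1.05 (SE 1.38) in edgeR and an adjusted p of 1. With the replicate number as a block, edgeR gave Ttr a log2 difference of 1.04. Its unadjusted p was 0.000675 and its adjusted p 0.727 in that fit.

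Clic6, a chloride channel-like protein of secretory epithelia, followed the same order with 1.49, 20.8 and 13.7 CPM in TREAT_HIGH and 0.672, 9.69 and 6.28 CPM in CON. Kl, which encodes the ageing-related protein klotho, had 5.59, 42.7 and 24.8 CPM in TREAT_HIGH and 4.17, 27.7 and 14.9 CPM in CON. Each of these again had its lowest value of a group in library 1, and the ranges of the groups overlapped. Sostdc1, a secreted antagonist of BMP and Wnt signals, had 1.15, 5.48 and 4.81 CPM in TREAT_HIGH and 0.929, 3.71 and 1.89 CPM in CON. Kcne2, a regulatory subunit of potassium channels, had 0.880, 2.97 and 2.34 CPM in TREAT_HIGH and 0.455, 1.69 and 1.74 CPM in CON. TREAT_HIGH 2 was the highest library for all of these genes.

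In 11 of the 12 choroid plexus genes TREAT_HIGH 1 and CON 1 both lay below each of the other 4 libraries, a pattern noticed in these data. Among all genes tested it held for 16.2%. Prlr, the prolactin receptor gene, was the exception and is named after its values were seen. It had 1.27, 11.8 and 6.75 CPM in TREAT_HIGH and 5.04, 26.0 and 2.74 CPM in CON. Its CON 3 value was thus the lowest of the CON group. TREAT_HIGH 2 was the highest library for 11 of the 12 and CON 2 for Prlr, and CON 1 was the lowest for 9. In CON 1 the folate receptor gene Folr1, the water channel gene Aqp1 and the transcription factor gene Otx2 had 0 counts, which allows up to 0.0593 CPM. That limit covers counting error only.

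**Figure D2:**
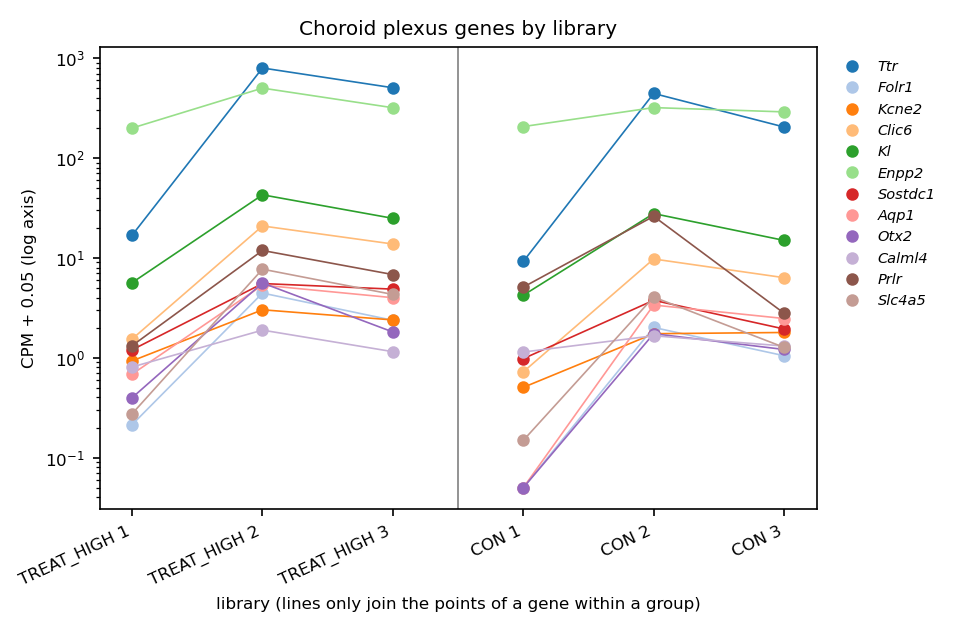
CPM of the 12 choroid plexus genes in each library on a log axis, with 0.05 added so that counts of 0 can be drawn; points are libraries, and lines join points of a gene within a group. Ttr reaches 795 CPM in TREAT_HIGH 2 and is lowest, at 9.15 CPM, in CON 1, while Enpp2 stays between 199 and 500 CPM.

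Enpp2 makes the lysophospholipid signal LPA in the choroid plexus and is also a gene of oligodendrocytes. It had 199, 500 and 318 CPM in TREAT_HIGH and 206, 319 and 289 CPM in CON. Library 1 was the lowest and library 2 the highest of each group, and the gene spanned 2.51-fold. The summed level of a list of 9 oligodendrocyte genes was 1260, 1430 and 1390 CPM in TREAT_HIGH and 1550, 1390 and 1600 CPM in CON. In TREAT_HIGH library 1 was thus the lowest and library 2 the highest, as for Enpp2. In CON, library 1 lay between the other libraries. Calml4, a calmodulin-like gene, spanned 2.42-fold and was the member of this tissue with the smallest spread in groups (SD 0.35 on the log2 scale).

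Counts of the members were also set against those of Ttr. Slc4a5, a bicarbonate transporter of the ventricular face, had 1.34, 0.962 and 0.843 counts per 100 counts of Ttr in TREAT_HIGH and 1.08, 0.904 and 0.597 in CON, while its level spanned 77.4-fold. The values of the first libraries rest on 11 counts in TREAT_HIGH 1 and 5 counts in CON 1. Clic6 had 8.89, 2.62 and 2.73 in TREAT_HIGH and 7.34, 2.19 and 3.07 in CON. Kl had 33.3, 5.37 and 4.93 in TREAT_HIGH and 45.6, 6.27 and 7.30 in CON. Relative to Ttr, both genes were thus several times higher in the first library of each group than in the other libraries. For Enpp2 the ratio reached 1190 in TREAT_HIGH 1 and 2250 in CON 1, and ranged from 62.8 to 141 in the other 4 libraries. Kcne2 had 5.24 in TREAT_HIGH 1 and 4.97 in CON 1, and 0.374 to 0.850 in the other 4 libraries. Sostdc1, Calml4 and Prlr were also highest relative to Ttr in the first library of each group. Folr1, Aqp1 and Otx2 were highest in TREAT_HIGH 1 but had 0 in CON 1.

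Promoters of genes that moved together are shown as the 250 bases before the RefSeq transcription start (GRCm38.p6), for 3 choroid plexus genes whose start equals the 5′ end of an isoform with most of the gene's reads. These isoforms held 100% of the counts of Kcne2, 76.1% of Kl and 99.4% of Slc4a5. Capitals mark matches to the searched letters on either strand.
Kcne2, chr16:92292139-92292388, plus strand: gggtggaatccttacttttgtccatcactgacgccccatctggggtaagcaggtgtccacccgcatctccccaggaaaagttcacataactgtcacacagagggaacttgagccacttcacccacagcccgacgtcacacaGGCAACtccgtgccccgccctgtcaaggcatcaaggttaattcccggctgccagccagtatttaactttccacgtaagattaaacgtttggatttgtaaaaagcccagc
Kl, chr5:150952357-150952606, plus strand: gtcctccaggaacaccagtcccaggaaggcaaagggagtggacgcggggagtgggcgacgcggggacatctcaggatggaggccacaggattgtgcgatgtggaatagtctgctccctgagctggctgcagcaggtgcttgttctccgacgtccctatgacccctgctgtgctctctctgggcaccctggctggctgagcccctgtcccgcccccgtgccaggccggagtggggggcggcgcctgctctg
Slc4a5, chr6:83237125-83237374, plus strand: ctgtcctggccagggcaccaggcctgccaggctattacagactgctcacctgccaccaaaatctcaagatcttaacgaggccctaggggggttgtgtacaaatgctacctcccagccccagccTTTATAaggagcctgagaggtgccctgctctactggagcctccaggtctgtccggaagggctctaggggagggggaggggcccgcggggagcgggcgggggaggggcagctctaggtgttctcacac
The letters searched were TAATCC (the core bound by OTX factors), GTTGCC (an X-box half-site) and TATAAA (the TATA box), on both strands. GTTGCC was found on the minus strand of the Kcne2 window, 109 to 104 bases before the start, and TATAAA on the minus strand of the Slc4a5 window, 127 to 122 bases before it. Of the 36 members, 23 had a promoter entry. TAATCC was found for 1 of 7 choroid plexus genes (Otx2), GTTGCC for 3 of 7 (Aqp1, Kcne2 and Otx2) and TATAAA for 2 of 7 (Otx2 and Slc4a5). Among 6 ependymal genes with an entry, GTTGCC was found for 2 (Ccdc153 and Dynlrb2), TATAAA for 1 (Tmem212) and TAATCC for 0. Among 10 meningeal genes with an entry, TAATCC was found for 2 (Slc22a6 and Slc6a13), GTTGCC for 1 (Slc22a6) and TATAAA for 1 (Col3a1). Of all 32851 windows, 6.25% held TAATCC, 10.4% GTTGCC and 12.4% TATAAA. A gene could have several windows, and these matches are a description of letters.

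Genes of the meninges were detected in all libraries, apart from Crabp2 with 0 counts in CON 1. Outside Igf2 and Crabp2 they spanned smaller ranges than Ttr and Clic6. Ptgds, the prostaglandin D synthase of the leptomeninges, which oligodendrocytes also express, lies on chromosome 2 (25466709 to 25470046) in the table. It had 173, 179 and 271 CPM in TREAT_HIGH, against 128, 173 and 174 CPM in CON. TREAT_HIGH 3 was the highest and CON 1 the lowest library, and the groups overlapped between 173 and 174 CPM. The means were 208 ± 55.0 CPM in TREAT_HIGH and 159 ± 26.3 CPM in CON (SD, n = 3 each), with a log2 difference of 0.42 (SE 0.21, adjusted p = 1 in edgeR).

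Slc13a4, a sulphate transporter on chromosome 6 (35267957 to 35308131), had 10.1, 13.4 and 14.2 CPM in TREAT_HIGH and 4.53, 9.34 and 8.15 CPM in CON. It was the tested member whose groups did not overlap, which held for 7.05% of all genes tested and for 2.52% in the higher direction. The log2 difference was 0.81 (SE 0.29), with an unadjusted p of 0.0239 and an adjusted p of 1 in edgeR. Leaving out a library gave log2 values between 0.58 and 1 and unadjusted p between 0.0186 and 0.0712 in edgeR.

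Dcn encodes decorin, a small proteoglycan that binds collagen fibrils. It had 13.2, 17.4 and 23.1 CPM in TREAT_HIGH and 14.7, 18.3 and 10.9 CPM in CON, with overlap of the groups. Mgp, an inhibitor of calcification, had 3.09, 3.51 and 6.69 CPM in TREAT_HIGH and 2.49, 3.65 and 2.85 CPM in CON. Its highest value came from TREAT_HIGH 3, and the others lay close together. Igf2, a growth factor expressed in meninges and choroid plexus, had 0.389, 19.7 and 27.1 CPM in TREAT_HIGH and 11, 16.9 and 16.3 CPM in CON. TREAT_HIGH 1 held 19 counts of Igf2, while the other libraries held between 554 and 1352, and the log2 difference of 0.11 had an SE of 1.02 in edgeR.

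The other 10 meningeal genes had log2 differences between 0.21 and 0.63 where they were tested. They comprise the collagen genes Col1a1, Col1a2 and Col3a1, the proteoglycan genes Lum and Bgn, the retinoic acid genes Aldh1a2 (synthesis) and Crabp2 (binding), the transporter genes Slc6a13 (GABA) and Slc22a6 (organic anions), and Igfbp2, which binds insulin-like growth factors. Col1a1 and Col3a1 were below the limit for testing. All 13 tested meningeal genes had values above 0, with a median log2 difference of 0.40, where the median over all genes was -0.01 and 48.5% of genes lay above 0. None of the 13 passed in edgeR, and 1, Slc13a4, had an unadjusted p under 0.05. TREAT_HIGH 3 was the highest library for 8 of the 15 genes and CON 1 the lowest for 11, and the median came to 0.24 without CON 1 and to 0.19 without TREAT_HIGH 3. Without both TREAT_HIGH 1 and CON 1 it was 0.40.

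The 10 tested choroid plexus genes had a median log2 difference of 0.76 and a range from -0.73 for Prlr to 1.26 for Folr1, with 8 above 0 and 2 below. In edgeR 0 passed and 0 had an unadjusted p under 0.05, and DESeq2 and limma also called 0. The median was 0.28 without CON 1, 0.29 without TREAT_HIGH 2, 1.40 without CON 2 and 1.21 without TREAT_HIGH 1. It stood at 0.71 without both TREAT_HIGH 1 and CON 1, where 1 gene had an unadjusted p under 0.05 and 0 passed in edgeR. With the replicate number as a block in edgeR, 6 of the 10 had an unadjusted p under 0.05 and 0 passed. In that fit 3.21% of all genes had an unadjusted p under 0.05. In bulk tissue, fewer cells of a type and less RNA per cell cannot be told apart.

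**Figure D3:**
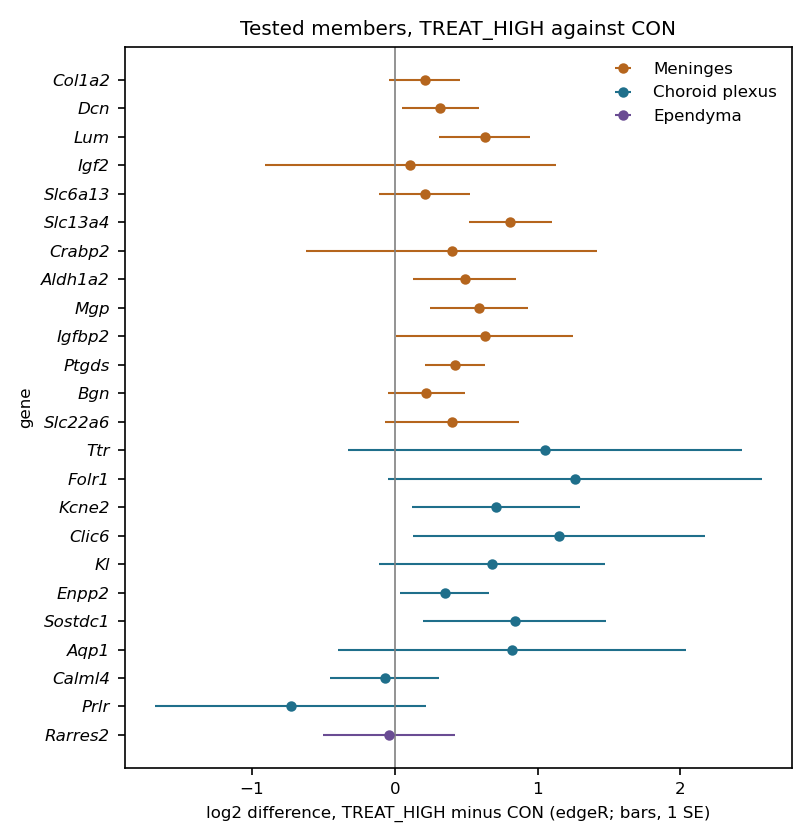
Log2 difference of TREAT_HIGH minus CON for the 24 tested members, with bars of 1 SE from edgeR. Values of the 13 meningeal genes lie between 0.11 and 0.81, and the bars of Ttr, Folr1 and Aqp1 are the widest, at 1.38, 1.31 and 1.22.

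Ependymal genes other than Rarres2 had low counts, and 8 of the 9 lay below the limit for testing. Foxj1, the activator of motile cilia genes, had 10, 97 and 16 counts in TREAT_HIGH and 55, 52 and 49 counts in CON. Tmem212, a membrane protein gene used as an ependymal marker, had 0, 13 and 32 counts in TREAT_HIGH and 26, 56 and 30 counts in CON. Ccdc153, a coiled-coil gene found in ciliated cells, had 0, 28 and 39 counts in TREAT_HIGH and 13, 13 and 25 counts in CON. None of these separated the groups. Rsph1 (radial spokes), Dynlrb2 (a dynein light chain), Cfap126 and Tekt4 (axoneme proteins) and Mia had between 13 and 117 counts over all 6 libraries.

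Rarres2, which encodes the chemoattractant chemerin, was the ependymal member that could be tested. It had 2.81, 3.14 and 5.21 CPM in TREAT_HIGH and 1.60, 5.56 and 4.64 CPM in CON, with a log2 difference of -0.04 (SE 0.46, adjusted p = 1 in edgeR). An isoform with a retained intron, ENSMUST00000203541, carried 66.5% of its counts in TREAT_HIGH and 70.8% in CON. For the 8 ependymal genes below the limit, edgeR without a filter gave log2 differences from -2.50 to 0.54, 4 above 0 and 4 below, with adjusted p of 1.

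The summed levels show the 3 tissues side by side in each library. Meningeal genes summed to 234, 271 and 391 CPM in TREAT_HIGH and to 183, 264 and 247 CPM in CON. Choroid plexus genes summed to 229, 1400 and 888 CPM in TREAT_HIGH and to 228, 843 and 528 CPM in CON. Ependymal genes summed to 3.93, 7.23 and 8.25 CPM in TREAT_HIGH and to 3.93, 9.85 and 8.06 CPM in CON. The first library of each group was the lowest of its group for every tissue, and TREAT_HIGH 2 had the most choroid plexus RNA while TREAT_HIGH 3 had the most meningeal RNA. The 95% Wilson interval of the ependymal sum was 3.41 to 4.53 CPM in TREAT_HIGH 1 and 3.42 to 4.52 CPM in CON 1, and covers counting error only. Without Rarres2 the ependymal sum was 1.13 CPM in TREAT_HIGH 1 (55 counts) and 2.33 CPM in CON 1 (118 counts).

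**Figure D4:**
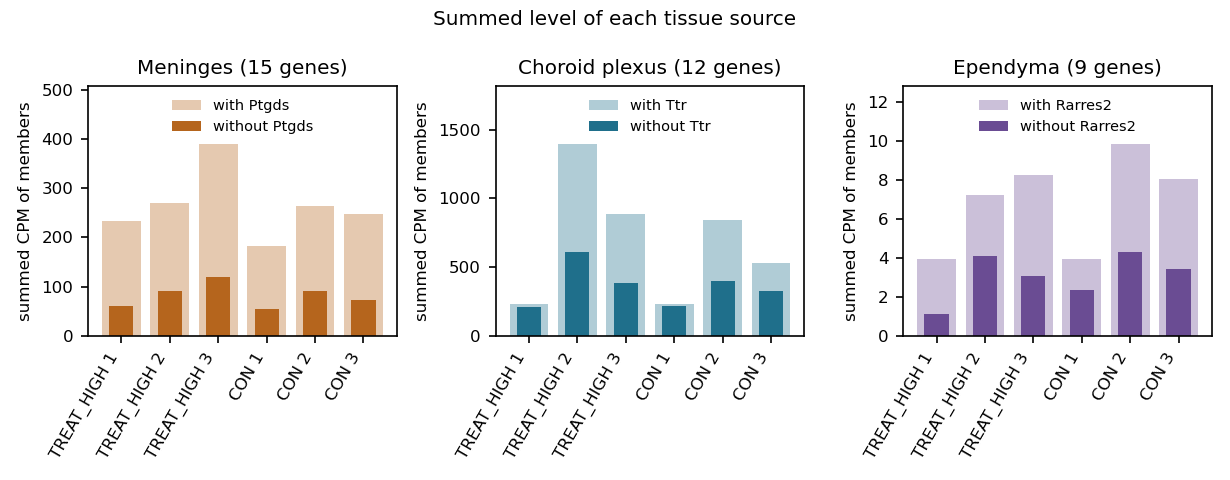
Summed CPM of the members of each tissue by library, TREAT_HIGH on the left. Pale bars include the most abundant member (Ptgds, Ttr or Rarres2) and dark bars leave it out; without Ttr the choroid plexus sum was 212, 608 and 384 CPM in TREAT_HIGH and 219, 401 and 324 CPM in CON.

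The tissues did not change in a fixed proportion. Choroid plexus counts were 0.979, 5.18 and 2.27 times the meningeal counts in TREAT_HIGH and 1.25, 3.19 and 2.13 times in CON. They were 58.2, 194 and 108 times the ependymal counts in TREAT_HIGH and 57.9, 85.6 and 65.5 times in CON. TREAT_HIGH 2 had the highest value of both ratios. Without Ptgds and Ttr, choroid plexus counts were 3.49, 6.63 and 3.19 times the meningeal counts in TREAT_HIGH and 4, 4.41 and 4.44 times in CON. Enpp2 made up 79.7% to 94.3% of the choroid plexus counts that remained. Without Enpp2 too, the ratios were 0.206, 1.18 and 0.547 in TREAT_HIGH and 0.228, 0.896 and 0.474 in CON, lowest in the first library of each group. Ependymal counts without Rarres2 were 0.0185, 0.0446 and 0.0253 times the meningeal counts without Ptgds in TREAT_HIGH. In CON they were 0.0426, 0.0471 and 0.0469 times.

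The spread inside the groups was measured as the SD of log2(CPM + 0.5) around the group means. Its median was 1.37 for choroid plexus genes and 0.42 for meningeal genes, and 0.27 over all genes tested. Among the lists of other genes described below, it was 0.68 for choroid plexus genes that are not members. It was 0.75 for striatal genes and 0.70 for red cell and for olfactory bulb genes. For the remaining lists it lay between 0.16 and 0.47. Ttr (2.97), Igf2 (1.95), Clic6 (1.75), Prlr (1.51) and Aqp1 (1.44) were among 9 members at or above the 95th percentile of all genes, 7 of them from the choroid plexus and 2, Igf2 and Igfbp2, from the meninges. At the other end stood Col1a2 (0.28), Ptgds (0.31), Lum (0.34) and Bgn (0.34). Aqp1 and Folr1 had at most 227 counts in each library, whereas Ttr held up to 34209.

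Other genes of the same tissues were read from lists that are not members. Of 22 tested meningeal genes 19 lay above 0, against 48.5% of all genes tested, with a median log2 difference of 0.30. None passed in edgeR or DESeq2, and 4 had an unadjusted p under 0.05 in edgeR, against 2.73% of all genes tested. The lowest p belonged to Ogn (osteoglycin, log2 0.75) and Fbln1 (fibulin, 0.68). Of 22 tested choroid plexus genes 19 lay above 0 (median 0.32), with 0 passing in edgeR or DESeq2 and 0 at an unadjusted p under 0.05 in edgeR. Their lowest p belonged to Col9a3 (1.08) and Lbp (0.86). The mean centred log2 level of the choroid plexus list was -0.65, 0.75 and 0.45 in TREAT_HIGH and -0.71, 0.40 and -0.25 in CON, again lowest in the first library of each group. Of 42 ependymal and cilia genes 14 were tested, 5 above 0 and 9 below (median -0.05), with 0 passing in edgeR or DESeq2. Cfap65 (-0.43) and Drc1 (0.36) had the lowest p, and 0 genes had an unadjusted p under 0.05.

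The genes whose pattern over the 6 libraries was most like the mean choroid plexus pattern were Tmem72, F5, Dtx2, Abca4, Whrn, Endog, Map3k15 and Pik3r5, with Pearson r between 0.974 and 0.994 among 2497 non-member genes compared. Tmem72 had 1.06, 37.9 and 14.1 CPM in TREAT_HIGH and 0.830, 22.6 and 7.60 CPM in CON. Coagulation factor gene F5 had 0.799, 14.0 and 8.27 CPM in TREAT_HIGH and 1.07, 8.24 and 3.97 CPM in CON. The genes compared had a mean of at least 1 CPM and an SD of at least 0.5 over the libraries. Listed genes that varied less were thus left out, and 14 of the 22 tested on the choroid plexus list remained. Of these 14, 10 were among the 100 most alike of the 2497. For the meninges the most alike were Rps24-ps3, Lypd1, Limd1, Cpne2, Spint2, Slc25a10, Ripor2 and Nfya (0.943 to 0.968). Of these, Spint2 is on the choroid plexus list and none is on the meningeal list. Of the 22 tested genes on the meningeal list 1 met the limits, and it was among the 100. For the ependyma they were Reep6, Strip2, Vldlr, Gm22422, Mid1, Gpx1, Ypel4 and Srebf1 (0.965 to 0.979), and 0 of 1 listed gene was among the 100. All of these values share the same 6 libraries and their depth, and they are descriptions.

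Markers of other regions and cell types also differed between the libraries. A list of 8 striatal genes summed to 105, 179 and 266 CPM in TREAT_HIGH and to 134, 246 and 210 CPM in CON, lowest in the first library of each group as in the choroid plexus genes. Striatal Penk had 2.72, 21.1 and 36.4 CPM in TREAT_HIGH and 11.7, 38.0 and 20.0 CPM in CON. Microglial genes summed to 158, 210 and 235 CPM in TREAT_HIGH and to 189, 212 and 205 CPM in CON, and astrocyte genes to 6100, 8990 and 7830 CPM in TREAT_HIGH and to 7540, 7930 and 7580 CPM in CON. The sums of these 2 lists, and those of the hippocampus and olfactory bulb, were also lowest in the first library of each group. Of the astrocyte sums, Slc1a2 gave 5000, 7830 and 6430 CPM in TREAT_HIGH and 6460, 6670 and 6570 CPM in CON. In the mean centred log2 level, the astrocyte list had -0.06 in both CON 1 and CON 3. The hippocampal list had 0.0, 0.38 and -0.08 in CON, lowest in CON 3. Thalamic genes summed to 686, 613 and 331 CPM in TREAT_HIGH and to 518, 619 and 285 CPM in CON. These sums were lowest in the third library of each group and rested mostly on Rora. Rora had 637, 566 and 259 CPM in TREAT_HIGH and 471, 566 and 236 CPM in CON. The mean centred log2 level of the thalamic list was -0.01, -0.06 and 0.23 in TREAT_HIGH and -0.14, 0.06 and -0.09 in CON. By that measure TREAT_HIGH 3 was the highest library. The 5 red cell genes summed to 149, 291 and 177 CPM in TREAT_HIGH and to 284, 224 and 408 CPM in CON, in another order. The 10 neuronal genes summed to 5380, 5070 and 5310 CPM in TREAT_HIGH and to 4020, 3770 and 4360 CPM in CON. Snap25, a synaptic vesicle fusion gene, gave 1200, 1170 and 1680 CPM of these in TREAT_HIGH and 580, 412 and 504 CPM in CON (log2 1.46, adjusted p = 0.26 in edgeR). The median of the neuronal list was 0.19 on the log2 scale, with 3 of 10 genes below 0. Endothelial genes summed to 267, 249 and 272 CPM in TREAT_HIGH and to 278, 268 and 218 CPM in CON. The share of intronic counts was highest in the first library of each group. The part of these in the members' values was not tested.

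Single isoforms of the members were read from a fit over 50548 isoforms, of which 3 passed in edgeR. Of 39 tested isoforms of 23 members 0 passed, against 0.00593% of all isoforms, and 2 had an unadjusted p under 0.05, against 3.53%. The pair were ENSMUST00000163448 of Dcn and the assembled MSTRG.13596.1 of Enpp2. ENSMUST00000163448 had 0, 0 and 4 counts in TREAT_HIGH and 8, 339 and 220 counts in CON (adjusted p = 1 in edgeR), and DESeq2 called it (log2 -7.03, adjusted p = 0.00551). DESeq2 called 2.40% of all 50548 isoforms, and 1 of these 39 is near that share. ENSMUST00000105287, which ends at the same position and has the same length of 1758 bases, had 599, 722 and 1097 counts in TREAT_HIGH and 556, 473 and 296 in CON, and reads common to the pair cannot be split with certainty.

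Of the 8 assembled isoforms of members, 6 had reads in all 6 libraries and 2 in a single library. For Ttr, MSTRG.18160.1 held 6160 counts in CON 2 and 0 in the other 5 libraries, next to 15303 counts of the annotated ENSMUST00000075312 in CON 2. For Kl, MSTRG.31802.1 held 780 counts in CON 3 and 0 elsewhere, while the annotated coding isoform ENSMUST00000078856 had 0 counts there and 190 to 1738 in the other libraries. Summing over isoforms, as done for the levels above, joins these counts. Circular RNAs of the members were rare: 5 circles from Col1a1, Enpp2 and Slc6a13 held 11 of 109896 back-splice reads, and 0 of them had reads in at least 3 libraries.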

How the data were processed

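RNA of 6 libraries was depleted of ribosomal RNA and made into stranded libraries, per the labels' protocols. HISAT2, StringTie and TopHat are named in the submitters' processing notes, with versions, settings and genome build not given in the sources used here. Each row of the deposited linear table holds FPKM and an estimated count per isoform, and all deposited estimated counts were whole numbers. Where the count is 0 the deposited FPKM is a small constant, which was set to 0. The deposited circular RNA table holds back-splice counts and SRPBM, a depth-scaled signal, which was not used. All 36 members overlapped their RefSeq gene in GRCm38.p6.

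Gene counts were summed over isoforms of class codes =, j, c, o and e with a symbol, 155855 of 175010 isoforms. Isoforms without a symbol (1.97% to 2.44% of counts) were left out. Features averaging 0.5 FPKM or more over the libraries entered edgeR 4.0.16 (R 4.3.3, quasi-likelihood test, TMM factors 0.961 to 1.04, two-sided, Benjamini-Hochberg over all features). DESeq2 1.42.0 and limma 3.58.1 were alternatives. The fit was checked on simulated counts with the same dispersion for all genes. That check does not cover genes as variable as those of the choroid plexus. SE was derived from the F statistic. Because CPM use library sums without TMM, CPM ratios and fitted differences differ slightly. Exact permutation of 3 against 3 samples could not give a p below 0.1 and was not used.

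The members and gene lists were chosen with earlier results of these data known. Values per library are given for the 4 members of highest FPKM and the 2 of smallest p per tissue, and the 8 genes most like a tissue had a mean of at least 1 CPM and an SD of at least 0.5. Promoter sequences are from RefSeq. Members below 0.5 FPKM are described by counts.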

Additional observations from a re-analysis of the deposited data

How the results depend on the processing

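Calls among members stayed at 0 for the 3 tissues under all 14 alternatives, which include DESeq2 and limma. The number of genes called, 5, came to 47 in DESeq2, 2 with no filter, 8 without replicate 1 of both groups (chosen after seeing the data), and 0 in limma with either pseudocount, with annotated isoforms only and with the replicate block; leaving out a library gave 0 (without CON 2 or TREAT_HIGH 2) to 17 (without TREAT_HIGH 1), and 2 without CON 1. Isoforms called, 3, came to 1211 in DESeq2 (1 of a member) and to 0 with library totals only, with no filter, with the replicate block and without replicate 1 of both groups; leaving out a library gave 0 to 1 (1 without CON 2 or TREAT_HIGH 1). At an unadjusted p under 0.05 these zero counts had 507 to 694 genes and 1741 to 3298 isoforms. The ependymal value (-0.04, Rarres2 alone) ran from -0.40 to 0.27 when a library was left out. Of 336 member values 28 had the opposite sign: limma gave -0.27 and -0.19 for Bgn, -0.76 and -0.17 for Igf2, 0.34 and 0.17 for Prlr (pseudocounts 0.1 and 1) and 0.02 for Calml4; annotated isoforms gave 0.22 for Rarres2; the replicate block gave -0.78 for Igf2 and 0.07 for Rarres2; without replicate 1 of both groups Calml4 had 0.07 and Crabp2 -0.50. Leaving out a library turned Calml4 (-0.47 to 0.18), Crabp2 (-0.18 to 1.05), Enpp2 (-0.04 to 0.61), Igf2 (-0.53 to 0.69), Kl (-0.01 to 1.37), Prlr (-1.46 to 0.75), Rarres2 (-0.40 to 0.27), Slc22a6 (-0.08 to 0.77) and Slc6a13 (-0.05 to 0.49). The causes were not tested. Same-numbered libraries correlated at 0.21, 0.11 and 0.06 in their deviations, and 6 of 6 libraries correlated best with their own number. The labels do not say whether the numbers pair the groups, and these correlations do not settle it. The main fit used no pairs. The block left 0 members called in edgeR. In that fit 6 of 10 choroid plexus and 3 of 13 meningeal genes had an unadjusted p under 0.05, against 3.21% of all genes. The circRNA fit was not run, as no circle of a member met its filter.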

Other observations

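Macrophages of the brain borders live beside the meninges and the choroid plexus, and their genes were low in these libraries. Of 6 genes listed for them 2 were tested. The mannose receptor gene Mrc1 had 7.76, 5.44 and 7.51 CPM in TREAT_HIGH and 4.05, 6.57 and 4.21 CPM in CON, with a log2 difference of 0.52 (SE 0.27, adjusted p = 1 in edgeR). F13a1, a coagulation factor gene of these cells, had 4.83, 3.46 and 4.19 CPM in TREAT_HIGH and 3.12, 5.32 and 3.55 CPM in CON. The groups overlapped in both genes, and the summed level of the list was 14.6, 12.9 and 16.5 CPM in TREAT_HIGH and 9.41, 15.8 and 10.9 CPM in CON. Lyve1, Pf4, Cd163 and Cbr2 were below the limit for testing, and Cbr2 had reads in CON 2 alone. Genes of vessel wall cells summed to 115, 112 and 122 CPM in TREAT_HIGH and to 110, 118 and 112 CPM in CON.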
